A study of Mus musculus with 18 samples.

Results

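The proteasome genes of mouse tibialis anterior muscle were followed across a surgical model of peripheral artery disease and an induced loss of the clock activator BMAL1. They were taken as the protein-coding genes whose symbol starts with Psma, Psmb, Psmc, Psmd or Psme and whose normalized count averaged at least 10 over the 18 libraries, which gave 41 of the 20922 genes in the table. Of 44 protein-coding genes with such a symbol, 3 fell under that mean: Psma8 at 0.253, Psme2b at 8.45 and Psmc3ip, which is not a subunit, at 8.94. The genes just inside it were Psmb9 at 12.8 and Psmb8 at 32.7. The 41 genes comprise 7 of the alpha ring and 7 of the constitutive beta ring of the core, 3 of the immunoproteasome, 6 ATPases, 3 other base subunits and 8 lid subunits of the cap, 3 assembly chaperones of the cap and 4 alternative activators.

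The 4 groups were BKO ligated, WT ligated, BKO intact and WT intact muscle, with 4, 4, 5 and 5 libraries. All mice carried floxed Bmal1 and, per the labels, were given doxycycline by gavage on 3 days and had the femoral artery of 1 hindlimb ligated a week later. In mice labelled BKO the drug was to delete Bmal1 in skeletal muscle through a Cre whose activator runs from an actin promoter (ACTA), and mice labelled WT were the controls. Muscle was collected on day 36 from the ligated limb and from the intact limb of the other side. The labels' protocol gives the Cre genotype as +/+ for controls and -/- for knockouts, so the genotype directions below rest on the group names. The sources used here give neither age nor time of day at collection. Nothing in the labels ties each library to a mouse of its own, so the p-values reflect only the spread among these samples, which may in part be technical.

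The proteasome is the protease that degrades proteins tagged with ubiquitin. Its barrel-shaped core stacks rings of alpha subunits, which gate the entrance, around rings of beta subunits, of which Psmb5, Psmb6 and Psmb7 cut peptide bonds after hydrophobic, acidic and basic residues. A cap holds the ATPases that unfold substrates and the subunits that bind and remove ubiquitin. Under interferon, Psmb8, Psmb9 and Psmb10 take the places of Psmb5, Psmb6 and Psmb7 to form the immunoproteasome, which makes peptides for presentation on MHC class I. In skeletal muscle the proteasome is known for its part in the loss of muscle protein during wasting.

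Total depth was 14089381 to 25629204 reads per library. The mitochondrial ribosomal RNA mt-Rnr2 took 40.9% to 55.5% of the reads in BKO ligated, 38.1% to 45.3% in WT ligated, 33.6% to 36.1% in BKO intact and 31.9% to 34.3% in WT intact libraries. Bmal1 (symbol Arntl) had a normalized count of 63.8 to 82.0 in BKO ligated and 12.2 to 18.3 in WT ligated libraries, and of 42.4 to 61.1 in BKO intact and 41.3 to 68.4 in WT intact libraries. Its total was thus not lower in the libraries labelled BKO. The count sums all exons, and the deleted exon is not named in the labels, so this total is no check of them, and BKO and WT are used here as labelled. Nr1d2, a gene activated by BMAL1, had 446 to 604 in BKO ligated and 1514 to 1728 in WT ligated libraries, and 479.7 to 557 in BKO intact and 1564 to 1744 in WT intact libraries. The 10 muscle fibre markers summed to 971174 to 1059258 in BKO ligated, 817105 to 955823 in WT ligated, 1147419 to 1370428 in BKO intact and 1176601 to 1371071 in WT intact libraries, and adipocyte markers were higher in ligated muscle in all 6 of 6 genes in both genotypes.

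Levels are compared between genes as normalized counts per kilobase of the principal transcript, averaged over the 18 libraries. Psmb6 was highest at 1022 per kilobase, followed by Psmb7 at 886 and the ATPase Psmc3 at 778. The constitutive beta subunits ranged from 255 to 1022 per kilobase, the alpha subunits from 119 to 499 and the ATPases from 264 to 778. The immunoproteasome subunits lay far below, at 9.43 for Psmb9, 20.1 for Psmb8 and 30.4 for Psmb10. The cap chaperones Psmd5, Psmd10 and Psmd9 were of the same low order, at 22.7, 26.8 and 39.1 per kilobase. Among the activators, Psme4 reached 489 and Psme1 206, and Psme2, whose protein joins that of Psme1 in 1 ring, stood at 77.9. Values per library below are not corrected for length and are compared within a gene only, and differences are on the log2 scale. The median coefficient of variation over the 41 genes was 9.54% in BKO ligated, 10.9% in WT ligated, 7.40% in BKO intact and 8.88% in WT intact libraries.

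Promoters of the members are shown where they hold a motif tied to a known regulator. RefSeq promoters on GRCm38.p6 (250 bases before to 50 after the start) were matched for 35 of the 41 genes, in 38 windows, and motifs were searched on both strands. Psmb1, Psmb2, Psmb7, Psmc3, Psmd3 and Psmd7 were not matched. The core of the antioxidant response element, TGACNNNGC, to which NFE2L1 and NFE2L2 bind, lay in 6 of the 38 windows (15.8%), beside 12.4% of all 32851 promoters in the table. Capitals mark the match, on either strand, in these stretches written 5′ to 3′ on the strand of the gene:
Psmb5, chr14:54618014-54618062: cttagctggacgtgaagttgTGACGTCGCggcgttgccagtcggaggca
Psmb6, chr11:70525328-70525376: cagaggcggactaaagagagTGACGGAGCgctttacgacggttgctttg
Psmc6, chr14:45329577-45329625: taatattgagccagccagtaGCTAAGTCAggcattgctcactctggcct
Psmd12, chr11:107479278-107479309: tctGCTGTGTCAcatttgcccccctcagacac
Psmd9, chr5:123228139-123228187: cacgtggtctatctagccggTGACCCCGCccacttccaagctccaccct
Psme4, chr11:30771748-30771796: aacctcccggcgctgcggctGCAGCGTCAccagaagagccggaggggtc
The core of the interferon-stimulated response element, written GAAA, any 2 bases and GAAA, lay in 4 windows (10.5%), beside 3.44% of all promoters. It was found in Psme1, the interferon-induced activator, and no match lay in the windows of Psmb8, Psmb9 and Psmb10; capitals mark the match in:
Psmb3, chr11:97703251-97703300: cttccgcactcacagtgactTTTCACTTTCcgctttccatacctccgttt
Psmd4, chr3:95042665-95042714: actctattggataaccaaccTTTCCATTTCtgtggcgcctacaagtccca
Psmd9, chr5:123228011-123228060: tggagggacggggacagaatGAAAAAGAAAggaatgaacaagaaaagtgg
Psme1, chr14:55578483-55578532: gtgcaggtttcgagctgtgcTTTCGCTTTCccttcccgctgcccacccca
The E-box CACGTG, bound by BMAL1 with CLOCK and searched after the data had been seen, lay in 4 windows (10.5%), beside 7.15% of all promoters, and capitals mark it in:
Psma4, chr9:54950699-54950744: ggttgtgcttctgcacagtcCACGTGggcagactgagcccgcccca
Psmb10, chr8:105938483-105938528: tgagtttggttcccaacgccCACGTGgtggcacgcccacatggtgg
Psmd9, chr5:123228119-123228164: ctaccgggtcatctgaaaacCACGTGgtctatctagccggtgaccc
Psme3, chr11:101316149-101316194: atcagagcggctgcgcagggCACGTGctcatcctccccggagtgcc
The NF-Y box CCAAT lay in 13 windows (34.2%), beside 37.4% of all promoters. No match of 1 motif overlapped a match of another. These matches describe the letters of the windows and were not set against the changes below.

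Ligated muscle was set against intact muscle to ask what the proteasome genes did after 36 days of arterial ligation. Most members that changed were lower in ligated muscle, in both genotypes. In BKO the lower members included 12 of 17 cap subunits (70.6%) and 10 of 14 core subunits outside the immunoproteasome (71.4%). In WT they included 12 of 17 (70.6%) and 6 of 14 (42.9%). In BKO muscle 25 of 41 were lower and 1 was higher at an adjusted p under 0.05, beside 25.1% of all 12262 genes tested lower and 22.1% higher. In WT muscle 21 of 41 were lower and 4 were higher, beside 21.1% of all genes lower and 18.7% higher. The median log2 fold change of the 41 genes was -0.38 in BKO and -0.24 in WT, and that of all genes tested was -0.00 in both. 10 members in BKO and 10 in WT moved by at least 1.5-fold either way, and 1 and 3 by at least 2-fold. The shares of all genes past these folds are not given here, so these counts have no background beside them. In whole muscle, fewer cells of a type and less RNA per cell cannot be told apart.

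The summed level of the 41 genes was also lower after ligation. It was 19879 ± 1103 normalized counts in BKO ligated and 26107 ± 996 in BKO intact muscle (SD, n = 4 and 5), and 18800 ± 1364 in WT ligated and 23920 ± 664 in WT intact muscle (SD, n = 4 and 5). WT ligated library 4 was the lowest of all at 16754. As a share of the reads of nuclear protein-coding genes, the sum was 0.306% ± 0.0117 in BKO ligated, 0.291% ± 0.0148 in WT ligated, 0.339% ± 0.00856 in BKO intact and 0.306% ± 0.0115 in WT intact muscle (SD). With every library scaled to those reads, a setting chosen after the data were seen, the median of all genes itself moved to 0.24 in BKO and 0.27 in WT. The gap between the members' median and that of all genes hardly changes under such a scaling by construction. Under quantile normalization the members' median was -0.26 in BKO and -0.13 in WT, and that of all genes -0.03 and -0.02. With scaling to coding reads, counts were 16 lower and 5 higher in BKO, and 8 lower and 10 higher in WT. The sign turned for 9 members in BKO and for 10 in WT, so the direction of the smaller changes depends on this scaling. In WT the members that turned were Psma4, Psma5, Psmb1, Psmb7, Psmc1, Psmc2, Psmc4, Psmd14, Psmd2 and Psmd3. In BKO they were Psma5, Psmb10, Psmc5, Psmd11, Psmd13, Psmd14, Psmd3, Psmd5 and Psme4. Of 10 muscle fibre markers, 6 were lower and 1 higher in BKO and 5 lower and 1 higher in WT, with a median of -0.43 and -0.35. Under quantile normalization 3 were lower and 1 higher in BKO (median -0.07), and 0 lower and 2 higher in WT (median 0.12). With scaling to coding reads 4 were lower and 1 higher in BKO (median -0.18), and 4 lower and 1 higher in WT (median -0.07). The sign of these markers' median thus turned in WT under quantile normalization only. Their part in the members' falls was not tested.

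**Figure D1:**
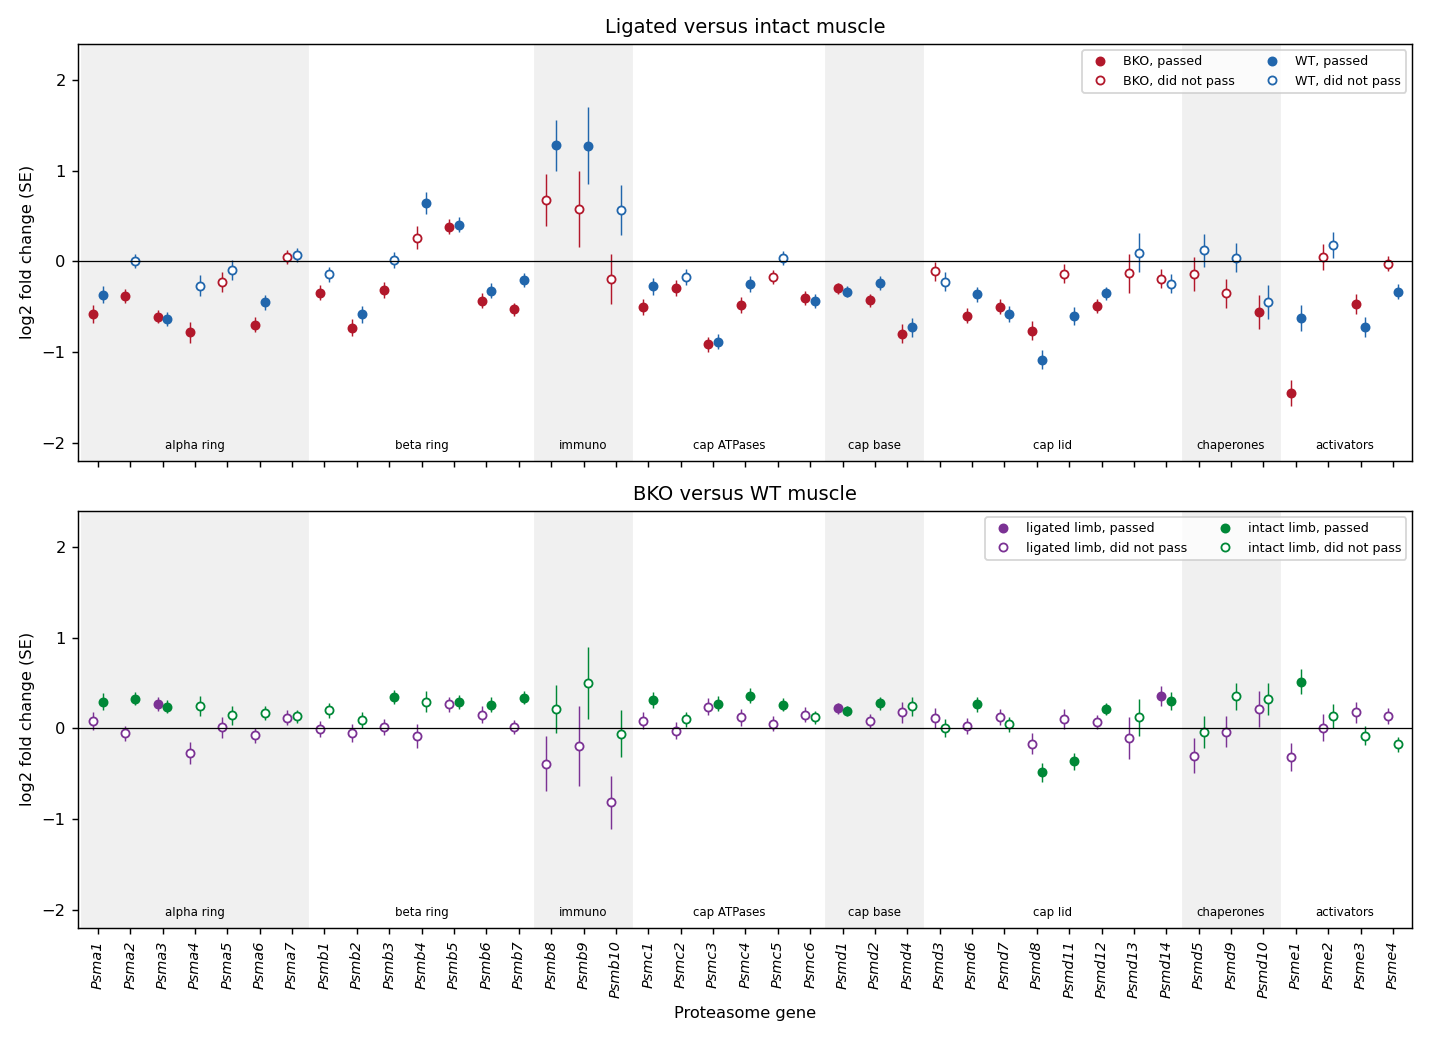
Log2 fold change with its standard error for each of the 41 proteasome genes, ordered by class, for ligated versus intact muscle in BKO and WT (top) and for BKO versus WT in ligated and intact muscle (bottom); filled points passed an adjusted p under 0.05. In the top panel 35 of 41 points for BKO and 28 of 41 for WT lie under 0, and 35 of 41 points for intact limbs lie above 0 in the bottom panel; scaling to nuclear protein-coding reads turns the sign of 9 BKO and 10 WT members in the top panel.

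**Figure D2:**
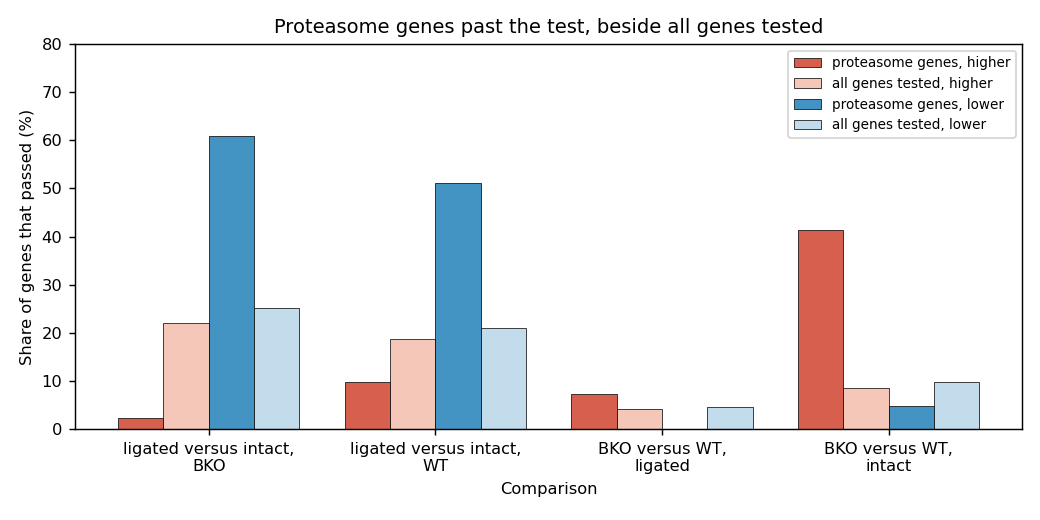
Share of the 41 proteasome genes, and of all 12262 genes tested, that were higher or lower at an adjusted p under 0.05 in each of 4 comparisons. The lower share of the proteasome genes was 61.0% in BKO and 51.2% in WT for ligation, beside 25.1% and 21.1% of all genes. The higher share for BKO versus WT in intact limbs was 41.5%, beside 8.56%. Scaling to nuclear protein-coding reads, not drawn here, gave 16 lower and 5 higher for ligation in BKO, and 8 lower and 10 higher in WT. The median of all genes also rose under that scaling, to 0.24 in BKO and 0.27 in WT.

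The alpha ring had 5 of 7 members lower in BKO and 3 of 7 in WT (4 and 1 with scaling to coding reads, which also gave 1 and 2 higher). Psma6 had 381, 398, 379.9 and 429 normalized counts in BKO ligated libraries, against 646, 694, 656, 666 and 561 in BKO intact ones. The groups did not overlap, and the log2 fold change was -0.70 ± 0.08 (SE; adjusted p = 9.56e-07). Psma3 led the class in WT, with 548, 506, 547 and 518 in ligated and 818, 773, 814, 819 and 896 in intact libraries (-0.64 ± 0.07, adjusted p = 9.26e-07). Every ligated library lay below every intact one, as it did in BKO, where the change was -0.61 ± 0.07. Psma4 fell by 1.72-fold in BKO (adjusted p = 1.63e-05), and its WT change of -0.27 ± 0.12 did not pass (adjusted p = 0.0746). Psma7 stayed near 0, at 0.05 in BKO (95% interval -0.11 to 0.21) and 0.07 in WT (-0.09 to 0.23).

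The constitutive beta ring had 5 of 7 members lower and 1 higher in BKO, and 3 lower and 2 higher in WT (2 lower and 2 higher in BKO, and 1 lower and 3 higher in WT, with scaling to coding reads). Psmb5, the subunit that cuts after hydrophobic residues (ENSMUSG00000022193, chr14:54614119-54618022 on mm10), was higher in ligated muscle of both genotypes. It had 454, 395, 468 and 472 normalized counts in BKO ligated libraries, against 332, 340.3, 360.3, 345 and 335 in BKO intact ones (0.38 ± 0.08, adjusted p = 0.000813). In WT it had 397, 316, 368 and 411 in ligated libraries and 297, 276, 267, 285 and 277 in intact ones (0.40 ± 0.08, adjusted p = 0.000594). Neither pair of groups overlapped. The other catalytic subunits went the other way. Psmb6 had 681, 701, 747 and 809 in BKO ligated and 934, 1084, 1082, 964 and 898 in BKO intact libraries (-0.43 ± 0.09, adjusted p = 0.000323). WT ligated libraries had 686, 545, 694 and 728 and WT intact ones 821, 861, 802, 816 and 822 (-0.32 ± 0.09, adjusted p = 0.00508). Again the ligated libraries all lay below the intact ones. Both falls of Psmb6 missed the threshold with scaling to coding reads (adjusted p = 0.0591 in BKO and 0.683 in WT).

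Psmb7, which cuts after basic residues, had 874, 788, 939 and 949 normalized counts in BKO ligated and 1279, 1308, 1358, 1299 and 1149.7 in BKO intact libraries (-0.53 ± 0.07, adjusted p = 8.04e-06). In WT it had 872, 785, 904 and 947 in ligated and 969, 1007, 983, 1073 and 1016 in intact libraries. That WT difference was -0.21 ± 0.07 (adjusted p = 0.0313); it missed the threshold without WT ligated 2 or 4 or WT intact 5 or 6 (adjusted p up to 0.12) and turned to 0.073 with scaling to coding reads. Exons of Psmb7 overlap those of Nek6 on the other strand. Psmb2, a structural subunit of the ring, had 345, 283, 299 and 310.4 in BKO ligated and 501, 515, 582, 513 and 462 in BKO intact libraries (-0.73 ± 0.09, adjusted p = 2.57e-06). In WT it had 343, 285, 339 and 319 in ligated and 525, 423, 473, 449 and 544 in intact libraries (-0.58 ± 0.09, adjusted p = 4.36e-05). Neither pair of groups overlapped. Psmb4, another structural subunit, was higher in WT by 0.64 ± 0.12 (adjusted p = 0.000315), although WT ligated libraries spanned 346 to 540.3 and intact ones 249 to 354, with WT ligated 4 under the highest intact library. Its BKO change of 0.26 ± 0.12 did not pass.

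**Figure D3:**
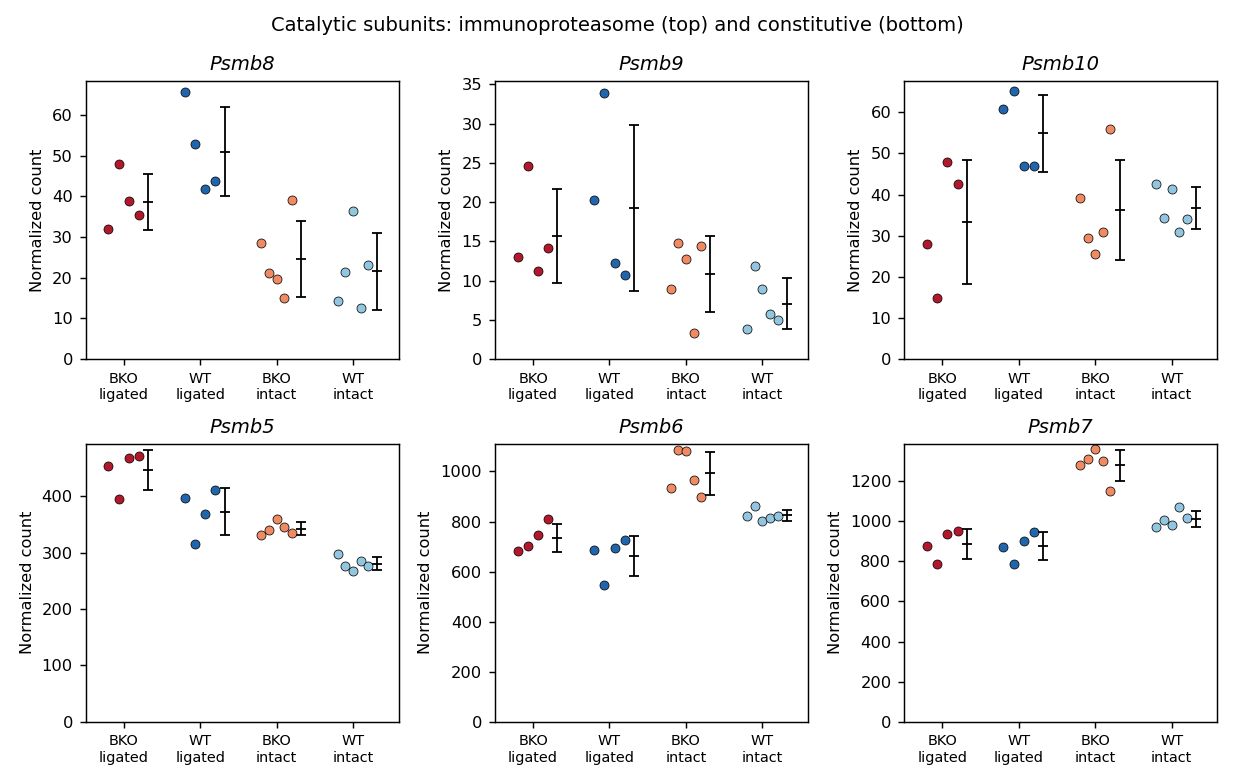
Normalized counts of the immunoproteasome subunits Psmb8, Psmb9 and Psmb10 (top) and of the constitutive subunits Psmb5, Psmb6 and Psmb7 they replace (bottom), for each library of the 4 groups, with mean and SD. Psmb5 was higher in ligated libraries of both genotypes, and Psmb6 and Psmb7 were lower as deposited (Psmb7 in WT turned to 0.073 with scaling to coding reads).

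In the cap, 12 of 17 subunits were lower in BKO and 12 of 17 in WT, and none was higher in either (9 lower in BKO, and 5 lower and 1 higher in WT, with scaling to coding reads). The largest fall of an ATPase was that of Psmc3 (ENSMUSG00000002102, chr2:91054009-91066369 on mm10), which had 972, 838, 925 and 979 normalized counts in BKO ligated libraries, against 1734, 1662, 1908, 1922 and 1560.1 in BKO intact ones (-0.92 ± 0.09, adjusted p = 6.28e-08). In WT it had 841, 660.4, 824 and 827 in ligated and 1532, 1599, 1373, 1353 and 1413 in intact libraries (-0.89 ± 0.09, adjusted p = 1.05e-07). No ligated library came near an intact one. Exons of Psmc3 overlap those of Slc39a13 on the other strand, and the sources used here do not give the strand setting of the counting. Among the other ATPases, Psmc6 was also lower in both genotypes, by 1.32-fold in BKO and 1.35-fold in WT. Psmc5 passed in neither.

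Psmd4, a subunit of the base that binds ubiquitin chains, had 564, 518, 534 and 600.4 normalized counts in BKO ligated libraries, against 1086, 1004, 1003, 872 and 861 in BKO intact ones (-0.80 ± 0.11, adjusted p = 5.71e-06). In WT the values were 565, 397, 548 and 466 in ligated and 867, 891, 678, 754 and 893 in intact libraries (-0.73 ± 0.11, adjusted p = 1.89e-05). The ligated libraries lay below the intact ones in both genotypes. The scaffold subunits of the base fell less: Psmd1 by 1.23-fold in BKO and 1.26-fold in WT, and Psmd2 by 1.35-fold and 1.18-fold. The WT call of Psmd2 missed the threshold without WT ligated 4 (adjusted p = 0.0606), and its WT sign turned with scaling to coding reads. That scaling left 1 of the 3 base subunits outside the ATPases lower in WT (median -0.05) and 2 of 3 in BKO (median -0.18). As deposited, all 3 were lower in both genotypes.

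Psmd8, a lid subunit (ENSMUSG00000030591, chr7:29174188-29180701 on mm10), showed the largest fall of any member in WT. It had 619.7, 507, 735 and 636 normalized counts in WT ligated libraries, against 1116, 1466, 1438, 1244 and 1332 in WT intact ones, a 2.12-fold fall (-1.08 ± 0.11, adjusted p = 1.48e-07). In BKO it had 573, 474, 540.3 and 629.7 in ligated and 958, 943, 1062, 913 and 822 in intact libraries (-0.76 ± 0.11, adjusted p = 9.60e-06). Neither pair overlapped. Psmd6 had the smallest p of the lid in BKO, with 498, 465, 519.9 and 576 in ligated and 804, 799.6, 744, 832 and 713 in intact libraries (-0.60 ± 0.08, adjusted p = 7.85e-06), and was lower in WT too (-0.37 ± 0.08). Psmd7, the partner of the lid deubiquitinase, changed by -0.50 ± 0.09 in BKO and -0.58 ± 0.09 in WT, both past the threshold. Psmd11 fell in WT by -0.60 ± 0.10 (adjusted p = 8.41e-05), while its BKO change missed the threshold. Psmd14, the deubiquitinase itself, passed in neither genotype. Of the 8 lid subunits, 4 were lower in BKO and 5 in WT as deposited, and 4 and 3 with scaling to coding reads. Psmd13, whose exons overlap Sirt3 on the other strand, ranged widely among intact libraries, from 263 to 523 in BKO intact and 197 to 438 in WT intact muscle, and passed in neither genotype.

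Of the 4 alternative activators, 2 were lower in BKO and 3 in WT, and none was higher (1 lower and 1 higher in each with scaling to coding reads). Psme1 (ENSMUSG00000022216, chr14:55578123-55581529 on mm10), a subunit of the ring that interferon induces, had 141, 121, 129.7 and 113 normalized counts in BKO ligated libraries, against 253, 388, 375, 311 and 434 in BKO intact ones. That was the largest fall of any member in BKO, 2.74-fold (-1.45 ± 0.15, adjusted p = 1.83e-07). In WT it had 143, 171, 179 and 137 in ligated and 276, 198, 215, 235 and 301 in intact libraries (-0.63 ± 0.15, adjusted p = 0.00212; adjusted p = 0.0779 with scaling to coding reads). The groups did not overlap in either genotype, and the WT ligated libraries spanned 137 to 179 against 198 to 301 for WT intact ones. Exons of Psme1 overlap those of Emc9 on the other strand. Psme2, its partner, passed in neither genotype: it averaged 78.5 ± 11.3 in BKO ligated and 75.9 ± 11.1 in BKO intact muscle, and 77.8 ± 8.77 in WT ligated and 68.9 ± 10.2 in WT intact muscle. Its groups overlapped in both genotypes, and Psme2b, at a mean of 8.45, is a near copy that may share its reads.

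Psme3, the activator of the nucleus, had 230.1, 221, 259 and 217 normalized counts in WT ligated libraries, against 374, 354, 426, 346 and 419 in WT intact ones (-0.72 ± 0.11, adjusted p = 2.80e-05). In BKO it had 299, 272, 247 and 232 in ligated and 292, 431, 352, 406 and 343 in intact libraries (-0.47 ± 0.11, adjusted p = 0.00174). The BKO groups overlapped by 1 library each, and the WT groups did not overlap. Psme4, the large single-chain activator, had 2771, 2418, 3141 and 2951 in WT ligated and 3346, 3716, 3578, 3536 and 3568 in WT intact libraries (-0.34 ± 0.08, adjusted p = 0.0029; adjusted p = 0.516 with scaling to coding reads). In BKO it had 3174, 2906, 2712 and 3626 in ligated and 3359.8, 3228, 3168, 3057 and 2890.4 in intact libraries, which overlapped. Of the cap chaperones, Psmd10 was lower in BKO, with 34.0, 39.3, 23.5 and 36.4 in ligated and 39.1, 65.3, 49.2, 44.4 and 49.2 in intact libraries (-0.56 ± 0.19, adjusted p = 0.0183). That call was lost without BKO ligated 5 (adjusted p = 0.0885) or BKO intact 2 (0.0578). In WT it had 31.6, 21.7, 27.0 and 33.8 in ligated and 45.2, 39.1, 39.4, 33.7 and 37.1 in intact libraries and did not pass (-0.45 ± 0.19, adjusted p = 0.0639), and neither did Psmd5 or Psmd9 in either genotype.

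**Figure D4:**
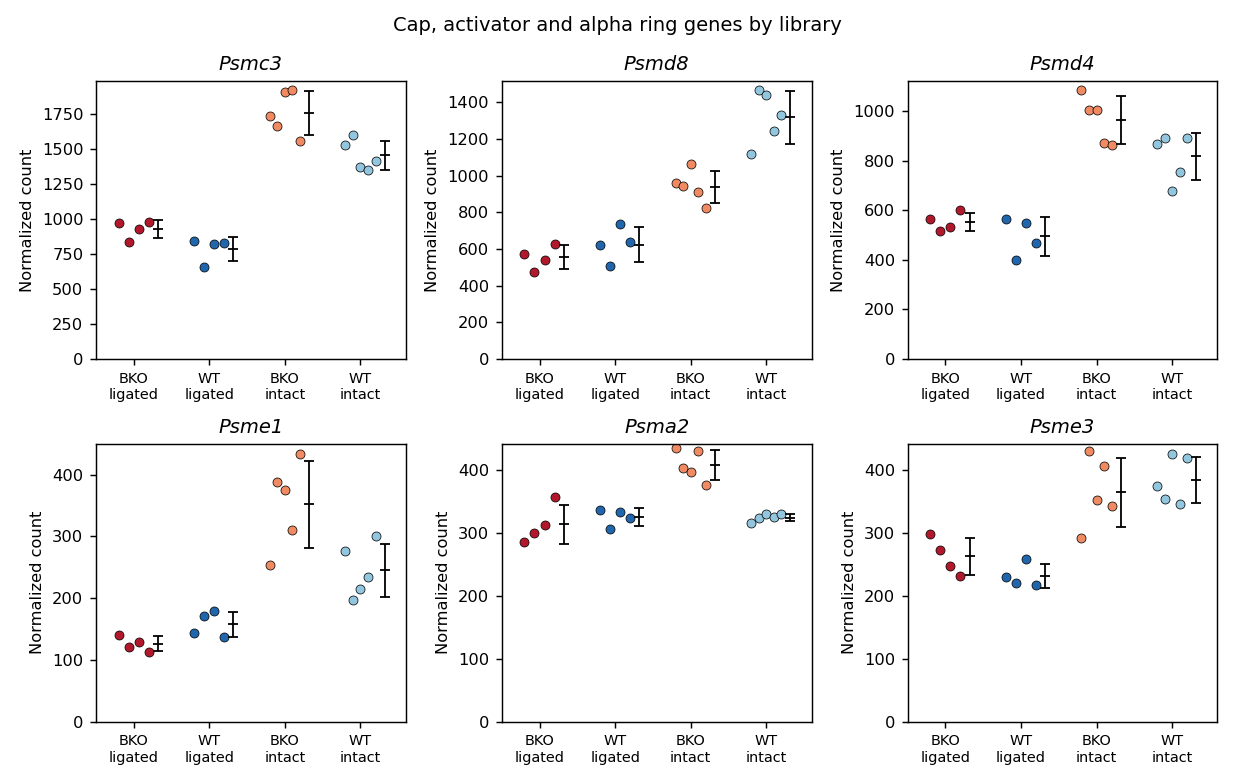
Normalized counts of the cap subunits Psmc3, Psmd8 and Psmd4 (top), and of the activator subunit Psme1, the alpha subunit Psma2 and the activator Psme3 (bottom), for each library of the 4 groups, with mean and SD. Psmc3, Psmd8, Psmd4 and Psme1 were lower in every ligated library than in every intact library of the same genotype, and Psma2 stood apart in BKO intact libraries, at 376 to 434.

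The BKO and WT ligation comparisons share no library, but both came from 1 fit with a shared estimate of the spread. Counts here are as deposited. With scaling to coding reads, which also raised the median of all genes, 16 members were lower in BKO and 8 in WT. Of the genes lower after ligation, 19 were lower in both genotypes, which is 76% of the 25 in BKO and 90.5% of the 21 in WT. The same share over all genes tested is not given here, so this overlap has no background beside it. By the call, 6 passed in BKO alone and 2 in WT alone; whether such genes differ between genotypes is a matter for the interaction test below. Leaving out any 1 library kept 25 of the 26 calls in BKO and 20 of the 25 in WT. In WT the calls lost were Psmd2, Psmc1, Psmb7, Psmc4 and Psmb9, and WT ligated 4 was a library whose removal ended each of them. The ligated libraries all lay below the intact ones for 24 members in BKO and 22 in WT, beside 19.7% and 17.8% of all genes tested. They all lay above for 1 member in BKO and 3 in WT, beside 16.0% and 14.7%.

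In the immunoproteasome 2 of 3 subunits were higher after ligation in WT and none was lower. Psmb8 (ENSMUSG00000024338, chr17:34197721-34201454 on mm10) had 65.6, 52.9, 41.8 and 43.6 normalized counts in WT ligated libraries, against 14.2, 21.3, 36.5, 12.5 and 23.1 in WT intact ones, 2.43-fold higher (1.28 ± 0.28, adjusted p = 0.00123). Psmb9 (ENSMUSG00000096727, chr17:34181987-34187764 on mm10) had 20.3, 33.9, 12.2 and 10.7 in WT ligated and 3.87, 11.8, 8.87, 5.78 and 5.02 in WT intact libraries, 2.42-fold higher (1.28 ± 0.42, adjusted p = 0.0204). The Psmb8 groups did not overlap, and the Psmb9 groups did. The Psmb9 call was lost without WT ligated 2 (adjusted p = 0.0528), WT ligated 4 (0.0949) or WT intact 2 (0.051), and under quantile normalization (0.0702). It rests on 77 reads in the 4 ligated and 33 in the 5 intact libraries. Psmb10 had 60.8, 65.1, 47.0 and 46.9 in WT ligated and 42.6, 34.3, 41.4, 30.8 and 34.1 in WT intact libraries. These did not overlap, but the difference of 0.57 ± 0.27 did not pass (adjusted p = 0.107; 0.0215 with scaling to coding reads).

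In BKO none of the 3 passed. Psmb8 had 32.0, 47.9, 38.8 and 35.5 normalized counts in BKO ligated and 28.5, 21.1, 19.7, 15.1 and 39.0 in BKO intact libraries (0.68 ± 0.28, adjusted p = 0.0553), and it did pass without BKO intact 5 (0.0165) and with scaling to coding reads (0.016). Psmb9 had 13.0, 24.5, 11.2 and 14.2 in ligated and 8.89, 14.7, 12.8, 3.35 and 14.4 in intact libraries (0.58 ± 0.42, 95% interval -0.30 to 1.46). Psmb10 had 28.0, 14.7, 48.0 and 42.6 in ligated and 39.1, 29.5, 25.6, 31.0 and 56.0 in intact libraries (-0.19 ± 0.27, -0.76 to 0.38). All 3 pairs overlapped. The difference of the ligation effect between genotypes was -0.60, -0.70 and -0.76 for Psmb8, Psmb9 and Psmb10, with limma's adjusted p of 0.41, 0.537 and 0.264, so a genotype difference was not shown.

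The level of each subunit over the constitutive one it replaces, a ratio of normalized counts not corrected for length, put these values on 1 scale. Psmb8 over Psmb5 was 0.0705 to 0.121 in BKO ligated, 0.106 to 0.167 in WT ligated, 0.0437 to 0.116 in BKO intact and 0.0439 to 0.137 in WT intact libraries. Psmb9 over Psmb6 was 0.0150 to 0.0350 in BKO ligated, 0.0147 to 0.0622 in WT ligated, 0.00347 to 0.0161 in BKO intact and 0.00472 to 0.0138 in WT intact libraries. Psmb10 over Psmb7 was 0.0187 to 0.0511 in BKO ligated, 0.0496 to 0.0829 in WT ligated, 0.0189 to 0.0487 in BKO intact and 0.0287 to 0.0439 in WT intact libraries. For Psmb10 over Psmb7 the WT ligated libraries lay above all intact libraries; for Psmb8 over Psmb5 they overlapped. WT ligated libraries also lay above WT intact ones for Psmb9 over Psmb6, where they overlapped both BKO groups. The constitutive subunit was the larger in every library.

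Leukocytes carry the immunoproteasome as their usual form. Of 12 tested leukocyte markers, 1 was higher in BKO ligated than BKO intact muscle (8.33%, beside 22.1% of all genes; median 0.29) and 10 were higher in WT ligated than WT intact muscle (83.3%, beside 18.7%; median 1.09), and none was lower. With scaling to coding reads 4 of the 12 were higher in BKO and 12 in WT, and the median of all genes rose too. The summed level of the 16 listed was 952 to 1447 in BKO ligated, 1670.0 to 2081 in WT ligated, 515 to 1679 in BKO intact and 766 to 941 in WT intact libraries. BKO intact libraries thus spread most widely, around a median of 898. Ptprc there had a median of 39.1 and a highest value of 159, and C1qa 45.2 and 61.1. The T cell marker Cd3e was at 0 in all WT intact libraries. Of 14 genes of MHC class I presentation, 5 were higher and 2 lower in BKO (35.7% and 14.3%, beside 22.1% and 25.1% of all genes), and 6 were higher and 2 lower in WT (42.9% and 14.3%, beside 18.7% and 21.1%). Counts depended on the scaling (9 higher and 2 lower in BKO, and 9 higher and 1 lower in WT, with scaling to coding reads). H2-D1, which encodes a class I heavy chain, averaged 735 ± 267 normalized counts in BKO ligated and 406 ± 129.6 in BKO intact muscle (0.85 ± 0.21, adjusted p = 0.00214). In WT it averaged 943 ± 125 in ligated and 340.2 ± 59.7 in intact muscle (1.48 ± 0.21, adjusted p = 1.03e-05). Tapbp, which loads peptides on class I, rose by 0.83 ± 0.16 in WT. The ER chaperone Canx fell in both genotypes (-0.50 in BKO and -0.56 in WT). Fibroblast markers were higher after ligation in 5 of 7 genes in BKO (71.4%, median 0.45) and 6 of 7 in WT (85.7%, median 1.11). Endothelial markers were higher in 7 of 8 genes in BKO (87.5%, median 0.90) and 6 of 8 in WT (75%, median 0.69). All genes tested were higher in 22.1% in BKO and 18.7% in WT. The part of the leukocyte markers, or of these others, in the immunoproteasome values was not tested. Exons of Psmb9 overlap those of Tap1 on the other strand.

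BKO was set against WT in intact limbs to ask how the proteasome genes differed between genotypes without ligation. In libraries labelled BKO, 17 of the 41 members were higher, 2 were lower and 22 did not pass, beside 8.56% of all genes tested higher and 9.75% lower. The members' median was 0.24 and that of all genes 0.00, and no member reached 1.5-fold. All BKO libraries lay above all WT ones for 14 members and below for 1, beside 7.14% and 7.23% of all genes. The 7 constitutive beta subunits and the 7 alpha subunits all had positive estimates, and 4 and 3 of them passed. In the cap 9 of 17 were higher and 2 lower, both in the lid. Counts were 19 higher and 2 lower with scaling to coding reads, and 10 to 17 higher when 1 library was left out, lowest without BKO intact 4. Calls of 9 of the 19 members held without any 1 library.

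Psma2, an alpha subunit, had 434, 403, 396, 429 and 376 normalized counts in BKO intact libraries, against 315, 323, 329, 325 and 329 in WT intact ones (0.33 ± 0.07, adjusted p = 0.00285). Every BKO library lay above every WT library, and the WT values were tightly grouped. Psmb7 had 1279, 1308, 1358, 1299 and 1149.7 in BKO intact and 969, 1007, 983, 1073 and 1016 in WT intact libraries (0.34 ± 0.07, adjusted p = 0.0015). Psmb5 had 342 ± 11.2 and 280.4 ± 11.2 in BKO intact and WT intact muscle (SD, n = 5 each; 0.29 ± 0.08, adjusted p = 0.0131). For Psmb6 the means were 992 ± 86.0 in BKO intact and 824 ± 22.0 in WT intact muscle (0.26 ± 0.08, adjusted p = 0.0262; lost without BKO intact 2 or 3 or WT intact 4, adjusted p up to 0.0755). So all 3 constitutive catalytic subunits were higher. Psmb3, a structural subunit, was higher by 1.27-fold (adjusted p = 0.0043).

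The ATPase Psmc4 had 586, 612, 614, 621 and 518 normalized counts in BKO intact and 462, 461, 444, 473 and 451 in WT intact libraries (0.36 ± 0.08, adjusted p = 0.00397), with no overlap. The base scaffold Psmd2 had 1852, 1849, 1821, 1881 and 1752 in BKO intact and 1473, 1611, 1478, 1582 and 1425 in WT intact libraries (0.28 ± 0.07, adjusted p = 0.00829), again with no overlap. Psme1 was the member with the largest rise, 1.43-fold (0.51 ± 0.14, adjusted p = 0.013), though its range of 253 to 434 in BKO intact libraries overlapped that of 198 to 301 in WT intact ones through BKO intact 1. The lid went both ways. Psmd8 was lower in BKO, 939.5 ± 86.6 in BKO intact against 1319 ± 144 in WT intact muscle (SD, n = 5 each), by -0.49 ± 0.10 (adjusted p = 0.00185), and its groups did not overlap. Psmd11 had 520.1, 489.9, 640.0, 561 and 609.6 in BKO intact and 764, 810.1, 825, 589 and 657 in WT intact libraries (-0.36 ± 0.10, adjusted p = 0.0105), which overlapped. Psmd6 and Psmd12, of the same lid, were higher by 1.20-fold and 1.16-fold. Those calls were lost in 5 and 6 of the 10 fits without 1 library (adjusted p up to 0.0608 and 0.101). Psmd14, also of the lid, was higher too, at 361 ± 45.9 in BKO intact and 293 ± 36.3 in WT intact muscle. Its call was lost in 5 of the 10 fits (adjusted p up to 0.107). The cap chaperone Psmd9 had 103 to 142 in BKO intact and 64.0 to 113 in WT intact libraries and did not pass (0.35 ± 0.15, adjusted p = 0.118). No immunoproteasome subunit passed, and the widest interval of the 3 was that of Psmb9 (-0.33 to 1.33).

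In ligated limbs few members differed between genotypes. Of 41, 3 were higher in BKO and 0 lower by limma, beside 4.16% of all genes higher and 4.68% lower. An unadjusted p under 0.05 was reached by 7, a count given without the share of all genes. On the recovered reads edgeR and DESeq2 also called 0 lower. Psma3 had 677, 559.6, 620.0 and 702 normalized counts in BKO ligated and 548, 506, 547 and 518 in WT ligated libraries (0.27 ± 0.08, adjusted p = 0.0337). Psmd1 had 1074, 994, 1075 and 1113 in BKO ligated and 915, 872, 914 and 945 in WT ligated libraries (0.22 ± 0.06, adjusted p = 0.0294). Psmd14, the deubiquitinase of the lid, had 304, 329, 289 and 338 in BKO ligated and 262, 233, 237 and 251 in WT ligated libraries (0.36 ± 0.11, adjusted p = 0.0419). None of these pairs overlapped; all BKO libraries lay above all WT ones for 3 members and below for 0, beside 5.78% and 7.1% of all genes. All 3 members were also called higher in BKO in intact limbs. Those calls were lost in 2, 4 and 5 of 10 fits without 1 library for Psma3, Psmd1 and Psmd14. None of the 3 calls in ligated limbs held in every fit without 1 of the 8 libraries. Psma3 was lost without any of them but BKO ligated 4 (adjusted p up to 0.0889), Psmd14 without any but BKO ligated 5 (up to 0.106), and Psmd1 without any but BKO ligated 4 and WT ligated 6 (up to 0.0675). Psmb5 was 0.26 ± 0.09 (adjusted p = 0.0657) and Psmc3 0.24 ± 0.09 (adjusted p = 0.11). Psmd5 and Psme1 did not pass either, at -0.30 ± 0.20 and -0.31 ± 0.16.

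All 3 immunoproteasome subunits had negative estimates in this comparison, and none passed. Psmb10 averaged 33.3 ± 15.0 normalized counts in BKO ligated and 54.9 ± 9.38 in WT ligated muscle (SD, n = 4 each; -0.82 ± 0.29, adjusted p = 0.0859), and the difference passed without BKO ligated 5 (0.0391) or 6 (0.0481). Psmb8 was -0.39 ± 0.30 (95% interval -1.01 to 0.24). Psmb9 was -0.20 ± 0.45 (-1.12 to 0.73) and turned to 0.11 without WT ligated 4. All 12 leukocyte markers also had negative estimates, with a median of -0.78, and 3 of them passed (25%, beside 4.68% of all genes lower). This was not particular to leukocytes. All 7 fibroblast markers (2 past the threshold, median -0.28) and all 6 adipocyte markers (1 past it, median -1.23) had negative estimates too. All 8 endothelial markers had positive ones, and none passed.

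The interaction, which subtracts the WT effect of ligation from the BKO one, tested whether the genotypes responded differently. Of the 41 members, 31 had a negative estimate; 2 passed, both lower, and 0 were higher by limma, beside 2.97% and 3.04% of all genes tested. At an unadjusted p under 0.05 there were 10, a count given without the share of all genes. By edgeR and by DESeq2, 1 was higher. For Psme1 the ligation effect was -1.45 in BKO and -0.63 in WT, a difference of -0.83 ± 0.21 (adjusted p = 0.0231). It missed the threshold without WT ligated 5 (adjusted p = 0.057). For Psma2 the effect was -0.38 ± 0.08 in BKO, where ligated libraries had 286, 299, 313 and 357 normalized counts. In WT it was 0.00 ± 0.08, with 337, 306, 333 and 323 in ligated libraries. The difference was -0.38 ± 0.11 (adjusted p = 0.0402) and was lost in 14 of the 18 fits without 1 library, in groups of both limbs and both genotypes (adjusted p up to 0.0886). The count of lower members was 6 without WT ligated 4, 4 without BKO ligated 6 and 0 without WT ligated 5. Both members were also higher in BKO than WT intact muscle, a comparison that shares its 10 libraries with this one. Without BKO ligated 4 and 5, the libraries with most mt-Rnr2, neither passed (adjusted p = 0.0895 for Psme1 and 0.145 for Psma2), nor did either with the replicate number as a block (0.0746 and 0.118). Psmb7 was -0.32 ± 0.10 (adjusted p = 0.0696) and Psmd11 0.47 ± 0.14 (adjusted p = 0.0582).

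Genes that supply the proteasome and its substrates were read from lists of related machinery. Of 14 genes for ubiquitin and delivery, 6 were lower and 2 higher after ligation in BKO, and 6 lower and 1 higher in WT (4 lower and 3 higher in BKO, and 2 and 2 in WT, with scaling to coding reads). That is 42.9% lower and 14.3% higher in BKO, beside 25.1% and 22.1% of all genes, and 42.9% and 7.14% in WT, beside 21.1% and 18.7%. Rad23b, which shuttles ubiquitinated proteins to the proteasome, averaged 513 ± 134 normalized counts in BKO ligated and 1565 ± 117 in BKO intact muscle (-1.64 ± 0.14, adjusted p = 1.79e-08). In WT it averaged 571 ± 102 in ligated and 1314 ± 123 in intact muscle (-1.21 ± 0.14, adjusted p = 1.02e-06). Both falls were larger than that of any proteasome subunit in the same genotype. Ubqln4, another shuttle factor, fell by 1.80-fold in BKO and 1.57-fold in WT. Ubqln2 was lower in BKO in intact muscle by -1.12 ± 0.15 (adjusted p = 2.32e-05). In intact muscle 4 genes of this list were higher in BKO and 1 lower (28.6% and 7.14%, beside 8.56% and 9.75% of all genes). In ligated muscle 2 were higher and 1 lower (14.3% and 7.14%, beside 4.16% and 4.68%).

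Of 9 tested genes for the transcription of proteasome genes, 5 were lower and 1 higher after ligation in BKO, and 4 lower and 0 higher in WT (3 lower and 3 higher in BKO, and 2 lower and 1 higher in WT, with scaling to coding reads). The lower share was 55.6% in BKO and 44.4% in WT, beside 25.1% and 21.1% of all genes. Ddi2, the protease that activates NFE2L1, fell by 1.60-fold in BKO (adjusted p = 1.17e-05) and 1.85-fold in WT (adjusted p = 5.10e-07). Nfe2l1 itself changed by -0.34 ± 0.10 in WT (adjusted p = 0.012, but 0.652 with scaling to coding reads and 0.0609 without WT ligated 5). Its means were 3499 ± 391 in WT ligated and 4406 ± 250 in WT intact muscle. They were similar in BKO, at 3482 ± 580 in ligated and 4345 ± 402 in intact muscle. Nfyc, a subunit of NF-Y, fell by 0.54 in BKO and 0.63 in WT on the log2 scale. In BKO versus WT, Ngly1, which removes the sugars of NFE2L1, was higher in intact muscle (0.37 ± 0.08, adjusted p = 0.00369). It was the 1 gene of the list that was higher, and 2 were lower (11.1% and 22.2%, beside 8.56% and 9.75% of all genes). In ligated muscle 1 was lower (11.1%, beside 4.68%). Of 14 tested assembly and accessory genes outside the Psma to Psme symbols, 3 were lower and 0 higher after ligation in BKO, and 4 lower and 1 higher in WT (1 lower and 4 higher in BKO, and 1 lower and 3 higher in WT, with scaling to coding reads). The lower share of 21.4% in BKO and 28.6% in WT lay near the 25.1% and 21.1% of all genes. Adrm1, a ubiquitin receptor of the cap, averaged 305 ± 29.8 in BKO ligated and 473 ± 47.4 in BKO intact muscle (-0.63 ± 0.10, adjusted p = 2.51e-05), and 297 ± 22.1 in WT ligated and 497 ± 55.5 in WT intact muscle (-0.74 ± 0.10, adjusted p = 4.92e-06). Pomp, which matures the core, was higher in BKO in intact muscle (0.31 ± 0.09, adjusted p = 0.0162), as was 1 other gene of the list. These 2 of 14 are 14.3%, beside 8.56% of all genes. In ligated muscle 1 gene of that list was higher in BKO (7.14%, beside 4.16%).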

How the data were processed

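RNA of 18 muscles was sequenced from TruSeq stranded total RNA libraries, per the labels' protocols. The submitters' processing notes name Trimmomatic 0.33, STAR 2.5.2, RSEM 1.3.3, DESeq2 and mm10; which annotation and strand setting served is not stated in them. The authors deposited normalized counts, used here as a signal per gene that is not corrected for length. Divided by 1 factor per library, 100% of the values were whole numbers within a tolerance of 0.001; in WT intact 6 and BKO ligated 2 that factor lay near 1, so this tells less there. The recovered reads, 14089381 to 25629204 per library, gave the depth, which limits the precision of low genes. No 2 libraries of a group agreed within sampling noise: over 32 pairs, chi-square divided by its degrees of freedom was 7.81 to 155.

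Genes with a mean of at least 10 (12262) were tested with limma 3.58.1 in R 4.3.3 on log2 of the deposited value plus 1, with 1 mean per group, eBayes with a trend and Benjamini-Hochberg adjustment over all of them. A gene passed at an adjusted p under 0.05. Errors beside log2 fold changes are standard errors, and those beside means are SDs over 4 ligated or 5 intact libraries; this scale understates changes of low genes. Alternatives were a pseudocount of 0.5, no filter, quantile normalization, edgeR 4.0.16 and DESeq2 1.42.0 on the recovered reads, the replicate number as a block and leaving out each library. On the recovered reads edgeR called 5757 genes for ligation in BKO, 4899 in WT, 2285 and 1126 for BKO versus WT in intact and ligated limbs, and 762 for the interaction. The test was also run on simulated data, with changes of 1 fixed size set between genotypes only, in genes of higher counts. No effect of ligation, interaction, change in low genes or smaller change was simulated, and the outcome is not given here. Coordinates and transcript lengths are from GENCODE on mm10.

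The members and the gene lists were chosen with earlier results of these data known. The CACGTG motif, scaling to the reads of nuclear protein-coding genes and leaving out BKO ligated 4 and 5, which had most mt-Rnr2, were added after the data were seen. By the rule for named genes, any member may be named, library values are given for Psmb5 to Psmb10, Psme1, Psme2, Psme4 and the member of each class with the smallest p in a comparison, and up to 4 genes of a related list with the smallest p in a comparison are named. H2-D1 in BKO, Psmb4, Psmd13 and some other library values were added after they were seen, and Psmd9 is given by its range.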

Additional observations from a re-analysis of the deposited data

Results flagged for a closer look

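Among 92 sets of a gene and a group, 2 libraries stood far from the others of their group. Chance flags about 1 in 20 such sets, so these 2 are no more than chance would give. Psmc3 in WT ligated 4 was 660.4 normalized counts, below the 824 to 841 of the other 3 libraries. This library also had the lowest summed level of the proteasome genes, a sum that includes Psmc3. Psme2 in WT intact 2 was 86.5, above the 60.2 to 67.4 of the other 4.

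By limma's interaction test, the ligation effect differed between genotypes for Psma2, by -0.38 on the log2 scale (adjusted p = 0.0402), and for Psme1, by -0.83 (adjusted p = 0.0231). Neither call held with the replicate block (adjusted p = 0.118 for Psma2 and 0.0746 for Psme1), and Psma2 was lost in 14 and Psme1 in 1 of 18 fits without 1 library. Both were lower in every BKO ligated library than in every BKO intact one. In WT, Psme1 was lower in 4 of 4 ligated libraries than in any intact one, and the Psma2 groups overlapped.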

How the results depend on the processing

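Scaling to nuclear protein-coding reads gave 8 lower and 10 higher in WT and 16 lower and 5 higher in BKO for ligation. The median of all genes also rose under that scaling, to 0.27 in WT and 0.24 in BKO. It turned Psmb7, Psmc1, Psmc4, Psmd2 and the accessory gene Zfand5 in WT to 0.073, 0.0019, 0.033, 0.039 and 0.065. Psmb10 in BKO turned to 0.048. Quantile normalization gave 3 higher for ligation in BKO, 5 higher for BKO versus WT in ligated limbs and 1 higher for the interaction, and edgeR gave 2 higher for ligation in BKO. For the interaction, edgeR and DESeq2 gave 1 higher, and the lower count was 4 with DESeq2, 1 with no filter, 0 with the replicate block and 0 without BKO ligated 4 and 5. The cause of these changes was not tested.

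Without 1 library, members counted 24 to 26 lower and 1 to 2 higher for ligation in BKO, 17 to 22 lower and 3 to 4 higher in WT, 10 to 17 higher and 2 to 2 lower for BKO versus WT in intact limbs, 0 to 3 higher and 0 to 2 lower in ligated limbs, and 0 to 6 lower and 0 to 1 higher for the interaction. Psmb10 ranged from -0.41 to 0.14 for ligation in BKO and from -0.23 to 0.048 for BKO versus WT in intact limbs, and Psmb9 from -0.42 to 0.11 for BKO versus WT in ligated limbs; each turned sign in 1 fit. Over genes named singly, 1289 values in fits without 1 library and 992 under other settings kept direction and side of the threshold, 125 and 83 fell short of it, and 14 and 11 came past it.

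With the replicate number as a block, 13 members were higher for BKO versus WT in intact limbs, 2 were higher in ligated limbs, and 18 in WT and 23 in BKO were lower for ligation. Correlations of same-numbered libraries' deviations were -0.06 to 0.05 between limbs and -0.06 to 0.12 between genotypes, which gave no sign that the numbers pair the samples, and the labels do not settle it. Depth limits the low genes most, above all the immunoproteasome.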
